A study of Homo sapiens with 6 samples.

Results

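The ZBTB, ZSCAN and ZKSCAN genes are zinc finger genes named for a second domain rather than by a ZNF number, and 56 of the 15949 genes measured here carried such a symbol. They were chosen by name alone, from transcript clusters (the array's gene-level units, each joining several probe sets) that list 1 gene symbol, after older symbols had been brought up to date. The ZBTB names made up 35 genes and formed the BTB class, and 15 ZSCAN and 6 ZKSCAN genes formed the SCAN class of 21. Each member was read by 1 cluster, so no choice among clusters was needed. By name the BTB class also holds ZBTB8OS, which encodes the tRNA ligase cofactor archease and has no zinc finger, and ZBTB7C-AS2, an antisense RNA gene, which leaves 54 zinc finger genes. A further 15 RefSeq protein-coding genes of these names, among them ZBTB4, ZBTB38, ZBTB24 and ZSCAN4, had no cluster of their own and were not analysed here.

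Total RNA came from PLC/PRF/5, an established human hepatocellular carcinoma line, 48 h after transfection with siRNAs against SLU7 (siSLU7, 3 arrays) or with a control siRNA (siGL, 3 arrays). SLU7 encodes a splicing factor of the second catalytic step, and the comparison asks which transcripts differ in level when it is reduced. All 6 samples shared the line, the serum-containing medium and the lipid transfection reagent, and each was hybridised to 1 Affymetrix Human Exon 1.0 ST array. The submitters' descriptions number the controls siGL1 to siGL3 while the design names siGL2 as the control. These were read as replicate numbers, as the titles give them, and if they are different siRNAs the control spread includes that difference. Values are RMA log2 signals per cluster. The labels do not say whether replicates were separate cultures, so the p-values speak of the spread among these 6 arrays, possibly a technical one, and of nothing wider.

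Zinc finger proteins of this kind bind DNA through tandem C2H2 fingers and mostly act as transcriptional repressors. The BTB domain of the ZBTB proteins forms dimers and recruits corepressors such as NCOR1 and BCOR with histone deacetylases, and some BTB proteins bind the ubiquitin ligase scaffold CUL3. The SCAN domain is a dimerisation module without known repressor activity of its own, and ZKSCAN proteins add a KRAB domain. In many other zinc finger proteins a KRAB domain recruits TRIM28 and the histone methyltransferase SETDB1. Whether the ZKSCAN proteins do so was not measured here. In liver, ZBTB20 is known in mice as the repressor that silences the fetal gene Afp after birth.

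SLU7 itself had 5.84, 5.58 and 6.21 log2 units in the siSLU7 arrays, against 7.89, 7.01 and 7.24 in the control arrays. It was lower in every siSLU7 array, by 2.84-fold, with a limma adjusted p of 0.0783 over all clusters. The first principal component (36.6% of the variance) separated siSLU7 replicate 1 and control replicate 2, 1 array of each group, from the remaining 4. These 2 arrays are called the outlying pair below, and values are given inside that pair and inside the remaining 4 arrays beside the main results. Of 10 markers of hepatocyte-derived cells, 9 were measured. KRT18, a simple epithelial keratin, averaged 12.67 log2 units with siSLU7 and 12.86 with control siRNA, APOA1, an apolipoprotein, averaged 10.62 and 11.55, and ALB (albumin) was dim at 3.07 and 3.87. All 9 had a negative difference, and 2 of them, AFP and APOA1, were lower at an unadjusted p under 0.05. Over all clusters 6.54% were lower at that level. The 4 endothelial markers were also all below 0 (median -0.26), against 1 of 5 blood markers and 3 of 6 fibroblast or stellate markers, and none of these 15 reached that level. Whether the lower markers bear on the values below was not tested. In such bulk RNA of 1 line, a change in some of the cells and a smaller change in all of them cannot be told apart.

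After SLU7 knockdown 37 of the 56 genes had a positive difference. Of the 21 SCAN genes, 18 had a positive difference, with a median of 0.38 log2 units (siSLU7 minus control siRNA), while the 35 BTB genes were spread around 0, with 19 positive and a median of 0.05. ZBTB1 was the member that passed the test over all clusters, and it rose 3.67-fold. No member fell at that threshold.

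**Figure D1:**
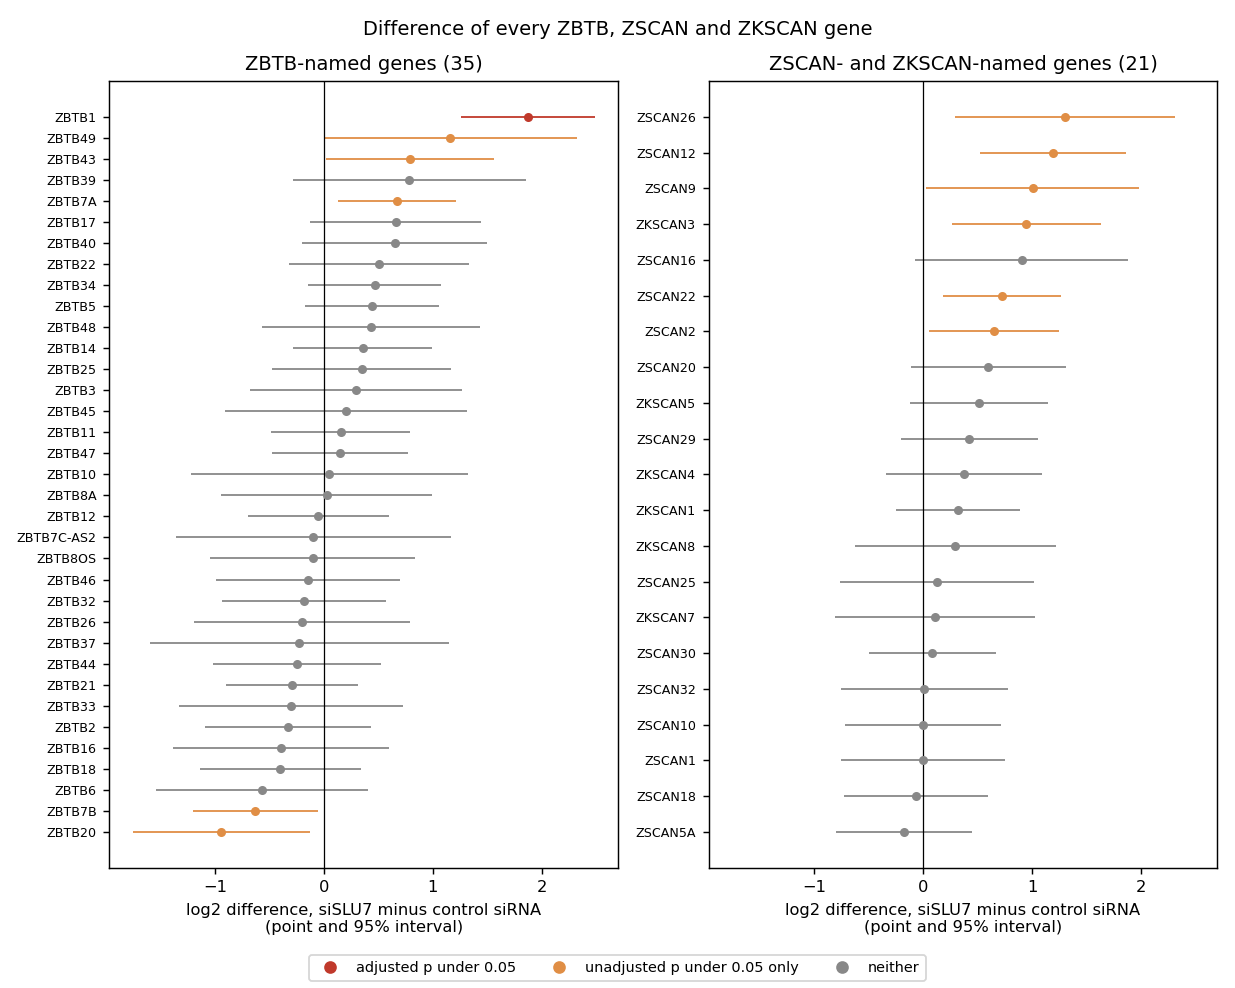
Log2 difference (siSLU7 minus control siRNA) of each ZBTB gene (left) and each ZSCAN or ZKSCAN gene (right), with its 95% limma interval. ZBTB1 at 1.88 is the 1 member with an adjusted p under 0.05, and 18 of the 21 genes on the right lie above 0, against 19 of the 35 on the left.

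ZBTB1, a transcriptional repressor that mice need for lymphocyte development, read 5.52, 5.81 and 5.52 log2 units with siSLU7, against 4.11, 3.62 and 3.48 with control siRNA. All 3 siSLU7 arrays lay above all 3 control arrays, with a gap wider than the range within either group. Its difference was 1.88 ± 0.27 (SE) log2 units, or 3.67-fold (95% interval 2.40 to 5.63), with a limma adjusted p of 0.0439. This made 1 member of 56 called, against 0.433% of the 18708 clusters called in either direction and 0.134% called higher. It came to 1.89 inside the outlying pair and 1.87 inside the remaining 4 arrays. The call was lost without any 1 of the 6 arrays, with adjusted p from 0.0698 (without control replicate 2) to 0.199 (without siSLU7 replicate 2). The control mean of 3.74 lies below the lower quartile of every array (4.86 to 4.98), so the size of the fold is uncertain.

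ZBTB25 is the neighbour of ZBTB1 in the RefSeq annotation, and RefSeq lists starts of both on opposite strands. It read 7.36, 6.90 and 6.61 log2 units with siSLU7, against 5.94, 7.12 and 6.77 with control siRNA. Its groups overlapped, and its difference of 0.35 ± 0.36 (SE) log2 units did not pass (adjusted p = 0.794 with limma). AKAP5, a kinase anchor gene, had a difference of -0.72 ± 0.36 log2 units and an unadjusted limma p of 0.0763. Its low RefSeq coordinate falls between the low coordinates of ZBTB25 and ZBTB1. That order ignores strand and does not place AKAP5 between the starts of ZBTB1 and ZBTB25. The windows below are shown because ZBTB1 was the member called and ZBTB25 is its neighbour. Whether their differences differ was not tested. Each is the stretch of 250 bases before the most upstream RefSeq start in the promoter table (GRCh38.p14), at chr14:64503637-64503886 on the plus strand for ZBTB1 and chr14:64505214-64505463 on the minus strand for ZBTB25, and capitals mark the motifs defined with the SCAN promoters further on.
ZBTB1: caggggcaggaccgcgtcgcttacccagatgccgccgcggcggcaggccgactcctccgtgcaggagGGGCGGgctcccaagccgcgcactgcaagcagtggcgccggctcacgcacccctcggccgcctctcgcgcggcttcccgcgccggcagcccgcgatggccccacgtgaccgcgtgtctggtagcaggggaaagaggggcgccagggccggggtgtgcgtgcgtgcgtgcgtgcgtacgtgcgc
ZBTB25: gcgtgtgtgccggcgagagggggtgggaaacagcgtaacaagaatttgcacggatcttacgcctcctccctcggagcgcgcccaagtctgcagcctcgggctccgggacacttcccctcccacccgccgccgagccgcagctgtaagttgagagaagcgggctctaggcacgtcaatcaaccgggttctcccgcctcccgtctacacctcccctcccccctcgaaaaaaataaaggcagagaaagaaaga
The ZBTB1 window has a GC content of 76.0% and 37 CpG dinucleotides, with 1 GC box. The ZBTB25 window has 61.6% and 21, with none of the 6 motifs searched.

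A further 3 BTB genes were higher in every siSLU7 array than in every control array, and 2 were lower in every one. Non-overlap of this kind was thus found for 4 BTB genes upward and 2 downward, of 35, while over all clusters it was 9.64% upward and 9.21% downward. ZBTB7A, known as LRF or Pokemon, a repressor of fetal globin genes that has also been described as a repressor of glycolytic genes, read 7.03, 6.98 and 7.03 log2 units with siSLU7, against 6.14, 6.40 and 6.48 with control siRNA. The siSLU7 arrays were nearly alike, and the difference of 0.67 ± 0.24 (SE) log2 units did not pass over all clusters (limma adjusted p = 0.267). The value was 0.63 inside the outlying pair and 0.69 inside the remaining 4. ZBTB43 read 6.94, 7.22 and 6.76 with siSLU7, against 5.50, 6.53 and 6.53 with control siRNA. Control replicate 1 was the low array, and the difference was 0.79 ± 0.34 (adjusted p = 0.371 with limma), and 0.45 without that array. ZBTB34, the RefSeq neighbour of ZBTB43, read 8.11, 8.52 and 8.07 with siSLU7, against 7.77, 7.50 and 8.03 with control siRNA. Its groups lay close together, at a difference of 0.47 ± 0.27 (adjusted p = 0.543 with limma).

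Of the BTB genes below 0, ZBTB20 had the largest difference. It read 3.18, 2.65 and 3.30 log2 units with siSLU7, against 4.12, 4.51 and 3.32 with control siRNA. The groups were parted only by the narrow gap between siSLU7 replicate 3 and control replicate 3, and both group means were below the lower quartile of the arrays. Its difference was -0.94 ± 0.36 (SE) log2 units (limma adjusted p = 0.303), -1.34 inside the outlying pair and -0.75 inside the remaining 4. AFP, the gene that ZBTB20 represses in mouse liver, read 4.84, 5.21 and 5.58 with siSLU7, against 6.50, 5.65 and 5.87 with control siRNA. AFP was below its control arrays in every siSLU7 array, at -0.80 ± 0.32 (adjusted p = 0.337 with limma). Whether ZBTB20 has a part in the AFP values was not tested. ZBTB7B, known as ThPOK, which directs T cells to the CD4 lineage, read 6.38, 6.59 and 6.84 with siSLU7, against 7.09, 7.19 and 7.42 with control siRNA. It lay lower in every siSLU7 array, with a difference of -0.63 ± 0.25 (adjusted p = 0.334 with limma), -0.81 inside the outlying pair and -0.54 inside the remaining 4.

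Members of the BTB class with well described roles were mostly within the spread of the arrays. ZBTB17 (MIZ1, the partner through which MYC represses cell cycle inhibitors) had 4.67, 5.59 and 5.19 log2 units with siSLU7, against 4.94, 4.01 and 4.53 with control siRNA. Its groups overlapped, at 0.66 ± 0.34 (SE; limma adjusted p = 0.485). ZBTB48 (TZAP, a telomere-binding protein) was at 0.43 ± 0.44 (adjusted p = 0.784), with single arrays of either group between 4.85 and 6.55. ZBTB33 (Kaiso, which binds methylated CpG and a CGCG sequence) had 6.24, 7.01 and 7.41 with siSLU7, against 7.70, 6.28 and 7.59 with control siRNA. The low array in each group belonged to the outlying pair, and the difference was -0.30 ± 0.45 (adjusted p = 0.874 with limma). ZBTB16 (PLZF, a fusion partner of RARA in leukaemia) was at -0.40 ± 0.44 and ZBTB18 (RP58, a repressor in developing neurons) at -0.40 ± 0.32, both with overlapping groups. ZBTB46, a marker of conventional dendritic cells, was at -0.15 ± 0.37 and ZBTB8OS at -0.10 ± 0.41. ZBTB49 had the second largest positive difference of the class, 1.16 ± 0.51, but its groups overlapped, with 7.02, 7.10 and 5.94 for siSLU7, against 4.47, 6.29 and 5.82 for control siRNA. Without control replicate 1 its difference was 0.63, and its limma adjusted p over all 6 arrays was 0.381.

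**Figure D2:**
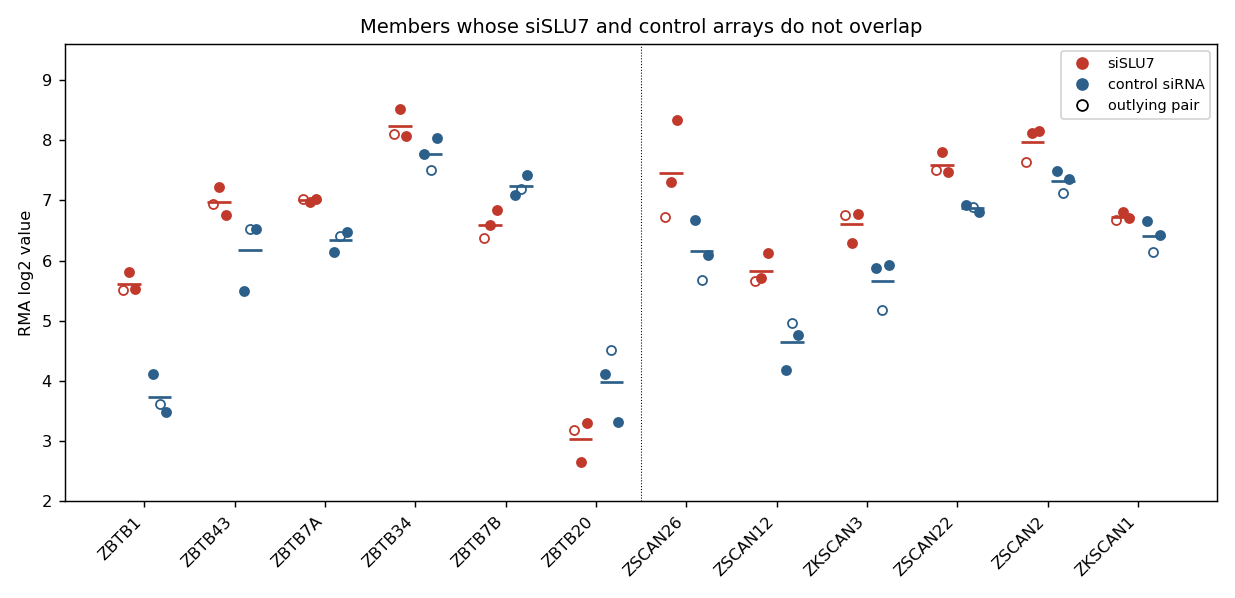
RMA log2 values of the 12 members whose siSLU7 (red, left) and control siRNA (blue, right) arrays do not overlap, with bars at group means and open circles for the outlying pair. ZBTB1 has the widest gap, from 4.11 in the highest control array to 5.52 in the lowest siSLU7 arrays, and ZBTB7B and ZBTB20 are the 2 genes that lie lower with siSLU7.

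In the SCAN class 6 genes were higher in every siSLU7 array than in every control array and none was lower in every one. This is 28.6% and 0.0% of 21 genes, beside 9.64% and 9.21% of all clusters. Of the 390 genes named ZNF and a number, 25.6% did not overlap upward and 1.03% downward, close to the SCAN shares. No SCAN gene passed limma's adjusted threshold. At an unadjusted p under 0.05, 6 SCAN genes were higher and none lower, against 6.55% of all clusters higher and 6.54% lower, and in the BTB class 4 were higher and 2 lower. At that unadjusted level the number of higher SCAN genes was 9 with array weights, 8 with the outlying pair as a block, 7 with an intensity trend and robust shrinkage, and 4 with the replicate number as a block. With array weights the adjusted test called ZSCAN12, and with the outlying pair as a block it called ZSCAN9 (adjusted p = 0.0445 and 0.0497). The unadjusted count was 3 without control replicate 2, without siSLU7 replicate 2 or without siSLU7 replicate 3.

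ZSCAN12 had the lowest p of the class. It read 5.67, 5.71 and 6.13 log2 units with siSLU7, against 4.18, 4.97 and 4.77 with control siRNA. Every siSLU7 array lay above every control array, at a difference of 1.19 ± 0.30 (SE; limma adjusted p = 0.122), with a control mean of 4.64 that is below the lower quartile of the arrays. Its value was 0.70 inside the outlying pair and 1.44 inside the remaining 4. ZSCAN26 read 6.73, 7.31 and 8.34 with siSLU7, against 6.68, 5.69 and 6.10 with control siRNA. Its siSLU7 arrays were spread over more than a log2 unit, the lowest of them just above control replicate 1, and the difference was 1.31 ± 0.44 (adjusted p = 0.245 with limma). ZKSCAN3, described as a repressor of autophagy and lysosome genes, read 6.76, 6.30 and 6.78 with siSLU7, against 5.88, 5.18 and 5.93 with control siRNA. It was higher in every siSLU7 array, at 0.95 ± 0.30 (adjusted p = 0.211 with limma), 1.58 inside the outlying pair and 0.63 inside the remaining 4. ZSCAN22 read 7.51, 7.80 and 7.48 with siSLU7, against 6.93, 6.89 and 6.80 with control siRNA. This was the SCAN gene with the tightest control group, and its difference was 0.72 ± 0.24 (adjusted p = 0.231 with limma).

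ZSCAN2 read 7.64, 8.11 and 8.16 log2 units with siSLU7, against 7.50, 7.12 and 7.35 with control siRNA, a difference of 0.65 ± 0.26 (SE; limma adjusted p = 0.342). ZKSCAN1 read 6.68, 6.81 and 6.70 with siSLU7, against 6.65, 6.14 and 6.43 with control siRNA. Its groups did not overlap but lay close, at 0.32 ± 0.25 (adjusted p = 0.689 with limma). ZSCAN10, known in mouse embryonic stem cells as the pluripotency factor Zfp206, had 8.67, 8.01 and 7.96 with siSLU7, against 7.95, 8.65 and 8.04 with control siRNA. The high array in each group belonged to the outlying pair, and the difference was 0.00 ± 0.31 with a 95% interval from -0.72 to 0.72. ZSCAN18 (-0.07 ± 0.29) and ZSCAN5A (-0.18 ± 0.27) were, with ZSCAN1 (0.00 ± 0.33, just below 0), the 3 SCAN genes with a negative difference. ZSCAN5A was dim in all arrays, at 2.20 to 2.87 log2 units.

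The SCAN genes with the largest differences lie beside each other in the genome. RefSeq places 7 SCAN members in 1 run on chromosome 6, in the order ZSCAN16, ZKSCAN8, ZSCAN9, ZKSCAN4, ZSCAN26, ZKSCAN3 and ZSCAN12, with consecutive starts under 500000 bases apart. All 7 had a positive difference, with a median of 0.95 and a range from 0.30 to 1.31 log2 units, and they include the 5 largest of the class. The other 14 SCAN genes had a median of 0.12, with 11 above 0. This run was picked out after its values were seen, so it has no test. ZSCAN16 read 7.17, 7.56 and 7.53 with siSLU7, against 7.28, 5.53 and 6.72 with control siRNA, and ZSCAN9 read 6.31, 7.07 and 7.29, against 6.17, 5.03 and 6.46. In both, control replicate 2 was the lowest array and the groups overlapped. ZKSCAN8 (0.30 ± 0.40 SE) and ZKSCAN4 (0.38 ± 0.31) had the smallest differences of the 7. PGBD1, a SCAN-domain gene inside the run that carries another name, was at 0.35 ± 0.31. The run is bounded by member names. ZNF165, also a SCAN-domain gene, is numbered shortly before ZSCAN16 on the array. It was at -0.06 ± 0.44 and dim in both groups. The median of the 7 was 1.04 inside the outlying pair and 0.78 inside the remaining 4. As levels, 6 of the 7 were lower in the outlying pair than in the remaining 4, by up to 1.08 log2 units (ZSCAN9).

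**Figure D3:**
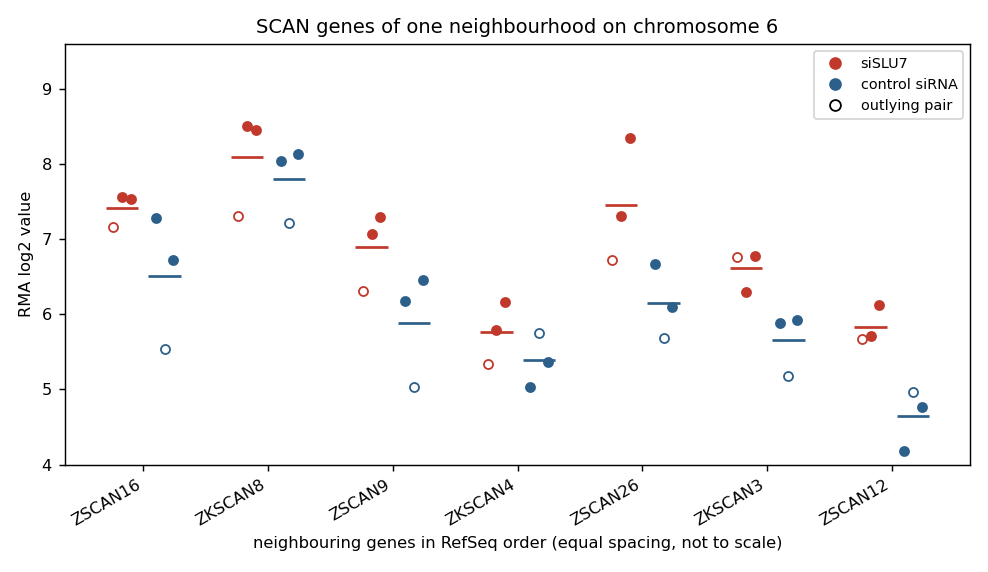
RMA log2 values of the 7 neighbouring SCAN genes of chromosome 6 in RefSeq order, siSLU7 (red) left of control siRNA (blue), with bars at group means and open circles for the outlying pair. All 7 siSLU7 means lie above their control means, by 0.30 to 1.31, and the groups do not overlap for ZSCAN26, ZKSCAN3 and ZSCAN12.

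Other runs of neighbouring members had smaller medians over their members, apart from the ZBTB25 and ZBTB1 pair described above. On chromosome 19, ZSCAN1, ZSCAN18, ZSCAN22 and ZBTB45 ran from -0.07 to 0.72 with 2 of 4 above 0, and on chromosome 7, ZKSCAN5, ZSCAN25 and ZKSCAN1 ran from 0.13 to 0.51. On chromosome 16, ZSCAN10 and ZSCAN32 (0.01) were near 0, whereas ZNF263, a SCAN-domain gene between them, was at 1.68 ± 0.32 (limma adjusted p = 0.0674). ZNF213, another SCAN-domain gene there and dim in both groups, was at 0.03 ± 0.36. Other genes there included ZNF75A at 2.18 ± 0.35 and ZNF205 at 1.28 ± 0.25, while OR1F1 (-0.41) and MEFV (-0.30) were below 0. On chromosome 9, ZBTB6 (-0.57) and ZBTB26 (-0.20) were both below 0 and ZBTB43 and ZBTB34 both above it.

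Windows of 250 bases before the start are shown for 3 of the 5 members of the chromosome 6 run that have one, those with the largest differences. Capitals mark matches, on either strand, to the GC box (GGGCGG), the CCAAT box (CCAAT), the TATA box (TATAAA), the NRF1 motif, the CGCG palindrome and an ETS motif (CCGGAAG). No motif contains another, and the ETS motif was added after these windows had been read. The sequences are from RefSeq, GRCh38.p14, at chr6:28399748-28399997 (minus strand), chr6:28349697-28349946 (plus strand) and chr6:28224990-28225239 (plus strand), in the order printed.
ZSCAN12: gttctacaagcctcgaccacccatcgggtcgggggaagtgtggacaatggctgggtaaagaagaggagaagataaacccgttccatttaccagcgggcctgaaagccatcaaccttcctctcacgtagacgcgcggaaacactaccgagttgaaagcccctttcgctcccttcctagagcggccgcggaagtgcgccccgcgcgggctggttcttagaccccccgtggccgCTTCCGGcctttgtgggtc
ZKSCAN3: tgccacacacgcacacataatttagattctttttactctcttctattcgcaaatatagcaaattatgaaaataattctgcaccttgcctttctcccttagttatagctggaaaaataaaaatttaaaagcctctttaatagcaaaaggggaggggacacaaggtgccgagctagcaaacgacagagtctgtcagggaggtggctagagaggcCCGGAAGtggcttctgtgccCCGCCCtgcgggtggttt
ZSCAN9: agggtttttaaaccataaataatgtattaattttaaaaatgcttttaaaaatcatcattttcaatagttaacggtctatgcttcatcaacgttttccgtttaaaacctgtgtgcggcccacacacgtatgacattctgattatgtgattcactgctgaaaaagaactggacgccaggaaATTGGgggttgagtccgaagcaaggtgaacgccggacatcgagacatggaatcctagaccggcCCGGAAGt
The ETS letters stand 19, 38 and 8 bases before the start in these windows, counted to the first base of the match. They occurred in 4 of the 5 windows found for the 7 genes of the run, not in that of ZKSCAN4. They also occurred in 9 of the 19 windows of the SCAN class (47.4%) and in 6 of the 29 windows of the BTB class (20.7%). Of 322 windows of ZNF-named genes 29.5% held them, and of all 27305 windows 8.78%. The counts of the run and of the SCAN class include the 3 windows read before this motif was added. Their contrast with the other sets is therefore partly fixed by that choice. A GC box was in 14 of 19 SCAN windows and 21 of 29 BTB windows, against 60.2% of ZNF-named windows and 42.2% of all windows. Neither class had a TATA box, which 2.80% of ZNF-named windows and 11.2% of all windows hold. Neither had the CGCG palindrome, which is rare, in 0 ZNF-named windows and 0.410% of all windows. These are matches of letters, and no binding was measured.

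Zinc finger genes named by number give a second background for both classes. The 390 ZNF-named genes had a median difference of 0.29 log2 units with 74.9% above 0, the SCAN class 0.38 with 85.7%, the BTB class 0.05 with 54.3%, and all clusters 0.00 with 50.5%. At an unadjusted p under 0.05, 21.3% of the ZNF-named genes were higher and 0.513% lower. The BTB median minus the SCAN median was -0.33, or -0.51 inside the outlying pair and -0.37 inside the remaining 4. Without control replicate 2 or without siSLU7 replicate 2 it was -0.18. The BTB median was 0.15 when ZBTB8OS and ZBTB7C-AS2 were left out, with 19 of 33 above 0. The 14 SCAN genes outside the chromosome 6 run had a median of 0.12, with 11 above 0. That is below the median of the ZNF-named genes, so the higher SCAN median rests largely on the 7 genes of the run. The run was picked out after its values were seen. No test was made of these class values, which describe the 6 arrays.

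**Figure D4:**
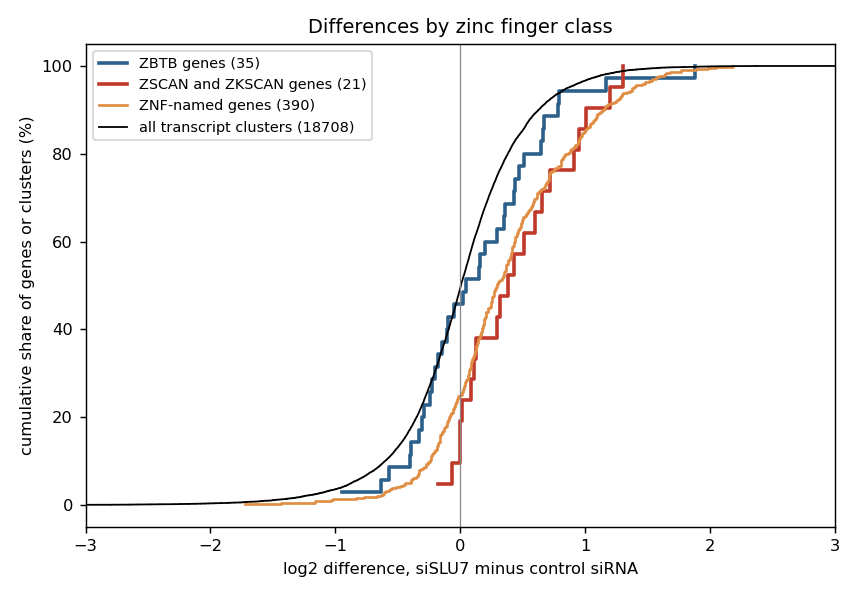
Cumulative share (%) of ZBTB genes, ZSCAN and ZKSCAN genes, ZNF-named genes and all transcript clusters at or below each log2 difference (siSLU7 minus control siRNA). The curves of the SCAN class and of ZNF-named genes lie to the right, with medians of 0.38 and 0.29, while that of the ZBTB genes crosses the middle at 0.05, close to all clusters at 0.00.

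Genes with the same domains but other names were described the same way. Of 8 BTB zinc finger genes without a ZBTB symbol, all measured, 6 were above 0, with a median of 0.08. None passed limma's adjusted threshold, and 1 (12.5%) was higher at an unadjusted p under 0.05, beside 6.55% of all clusters. That gene, ZNF131, read 9.93, 10.35 and 10.15 log2 units with siSLU7, against 8.72, 8.27 and 9.30 with control siRNA, a difference of 1.38 ± 0.32 (SE; adjusted p = 0.102). BCL6, the germinal centre repressor, was at 0.03 in dim arrays. Of 25 listed SCAN-domain genes with other names, 21 were measured and 15 were above 0, with a median of 0.25. None passed over all clusters, while 4 were higher (19.0%) and 1 lower (4.76%) at an unadjusted p under 0.05. Over all clusters these shares were 6.55% and 6.54%. Among ZNF-named genes, which include most of this list, they were 21.3% and 0.513%. ZNF263 read 8.38, 9.23 and 9.36 with siSLU7, against 7.08, 7.56 and 7.31 with control siRNA, so that its groups lay far apart.

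Partners and targets described for these proteins, or for domains of their kind, were read as well. Their counts at an unadjusted p under 0.05, here and in the next paragraph, stand beside 6.55% of all clusters higher and 6.54% lower. Among 25 measured corepressor and CUL3-ligase partners of BTB domains the median difference was 0.07, and none passed limma's adjusted test (1 higher and 1 lower at an unadjusted p under 0.05). RBBP4, a histone-binding subunit of deacetylase complexes, had the lowest p, at 1.08 ± 0.29 log2 units (SE; adjusted p = 0.151). MTA1, the 1 partner lower at an unadjusted p under 0.05, was at -0.80 ± 0.24 (limma adjusted p = 0.191). NCOR1 (-0.52) and BCOR (0.52) did not pass. Among the 15 genes of the KRAB corepressor list the median was 0.05, none passed, and 2 were lower at an unadjusted p under 0.05. Of these 2, UHRF1, which maintains DNA methylation, was at -0.86 ± 0.24 (limma adjusted p = 0.154). The other, DNMT3B, was at -1.82 ± 0.69 with overlapping groups. TRIM28 (0.16) and SETDB1 (0.47) also had overlapping groups. Of the 3 glycolytic genes described as ZBTB7A targets, all were below 0, and PFKP, the platelet phosphofructokinase, passed, at 8.29, 8.72 and 8.37 with siSLU7, against 10.74, 10.88 and 11.11 with control siRNA. PFKP fell by 2.45 log2 units (adjusted p = 0.0316 with limma). Its call was lost without any 1 array, the adjusted p lying between 0.0591 (control replicate 2 left out) and 0.180 (control replicate 3 left out). PKM, pyruvate kinase, read 8.87, 8.76 and 8.88 with siSLU7, against 9.21, 10.00 and 10.30 with control siRNA (adjusted p = 0.215), and SLC2A3, a glucose transporter, was at -0.51, neither passing. Whether ZBTB7A has a part in these values was not tested.

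For ZKSCAN3, the 11 autophagy and lysosome genes listed as its targets had a median of 0.05, with 6 above 0, and none passed limma's adjusted test (1 higher and none lower at an unadjusted p under 0.05). UVRAG, a regulator of autophagosome maturation, was at 1.05 ± 0.31 log2 units (SE; adjusted p = 0.185) and MAP1LC3B, the LC3 protein of autophagosomes, at 0.56. Non-overlap of the groups was found for 3 of the 11 upward and 2 downward, beside 9.64% and 9.21% of all clusters. The 2 that lay lower in every siSLU7 array were ULK1, the kinase that starts autophagy, at -0.49 ± 0.24, and LAMP2, a lysosomal membrane protein, at -0.43 ± 0.25. The 8 partners and targets of ZBTB17 had a median of -0.08 and none passed (none higher and 1 lower at an unadjusted p under 0.05). HUWE1, a ubiquitin ligase of this pathway, was at -0.98 ± 0.39 (adjusted p = 0.339), and CDKN1A, a cell cycle inhibitor, was at -0.21 with overlapping groups.

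In 32 of the 56 members the outlying pair differed from the remaining 4 arrays by more than siSLU7 differed from control siRNA, as it did in 11107 of 18708 clusters. The pair was lower by over 0.5 log2 units in 13 members and higher by over 0.5 in 14. Of the 18708 clusters, 3378 were lower and 3967 higher by that much. ZBTB10 had 5.19 with siSLU7 and 5.34 with control siRNA in the outlying pair, against 6.65 to 6.93 in the remaining 4, so that its difference between the treatments was 0.05 ± 0.56 (SE). ZBTB26 showed the opposite, with 8.93 and 9.53 in the pair and 8.03 to 8.23 in the others. Across the SCAN class the median difference was 0.47 inside the outlying pair and 0.52 inside the remaining 4, and across the BTB class -0.04 and 0.15.

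**Figure D5:**
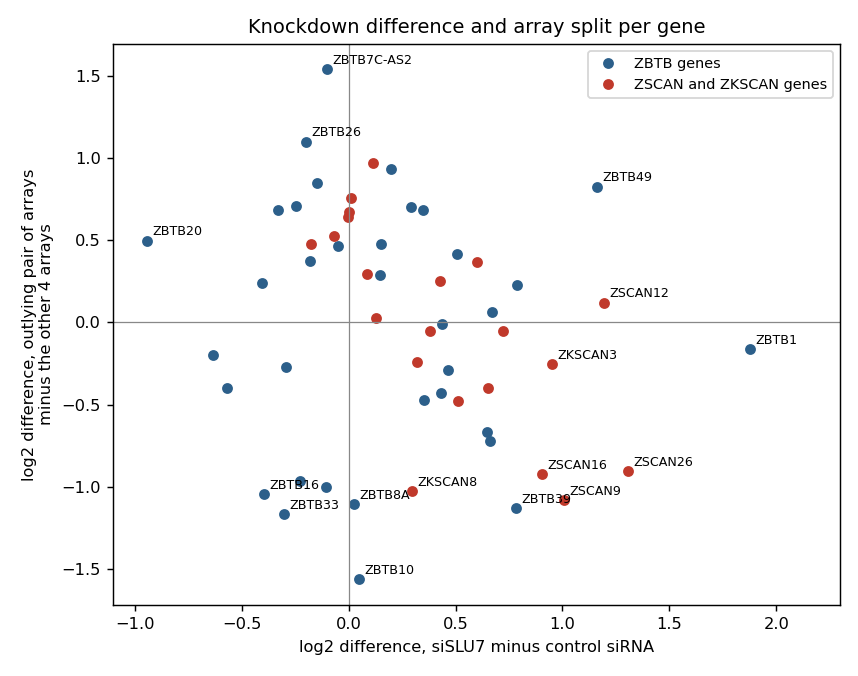
For each member, the log2 difference between siSLU7 and control siRNA (x axis) and between the outlying pair and the remaining 4 arrays (y axis), ZBTB genes in blue and SCAN genes in red. ZBTB1 lies far right at 1.88 and near 0 on the y axis, whereas ZBTB10 at -1.56 and ZBTB26 at 1.10 differ between the arrays and hardly between the treatments.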

How the data were processed

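The authors' deposited log2 values were used, 1 per transcript cluster (18708) and array. Per the labels they rest on the core chip definition of aroma.affymetrix, and the submitters' processing notes name RMA, which corrects background, normalizes and summarises probes. The genome build, the annotation release and whether arrays were normalized jointly are not given here in any source. One value per gene cannot show exon use, so altered splicing can appear as a level. The number of arrays limits precision (median SE 0.312).

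Symbols came from GEO's platform annotation: 16287 clusters had 1 symbol, 674 several and 1747 none, and 2179 symbols were updated through RefSeq (GRCh38.p14). Limma 3.58.1 (R 4.3.3, lmFit and eBayes, group as only term, no filter) was fitted to all clusters. Its p-values were two-sided, with Benjamini-Hochberg adjustment over all clusters and a threshold of 0.05. The fit was also run on simulated data with noise independent between clusters and arrays. Those data lacked the split of the outlying pair, so they do not bear on how that split affects the calls. Signals of different clusters were not tested against each other, since probes differ, and were ranked only to name the brightest and dimmest member of each class. The members and lists were chosen with earlier results of these data known. Named genes were SLU7, called members, up to 6 non-overlapping members per class and direction, 12 members with described roles, those brightest and dimmest members, and called or lowest-p list genes. ZBTB49, ZBTB25, ZBTB10, ZBTB26 and the chromosome 6 run were chosen after their values were seen. So were list genes outside that rule and the other genes named inside runs. Same-numbered replicates deviated together at -0.38, -0.31 and 0.14, so the numbers were not taken as pairs. Pairs of arrays had equal values in at most 9 clusters. Alternatives were a replicate block, no dim clusters, quantile normalization, median centring, array weights, an intensity trend (robust shrinkage), a threshold of 0.01, means of clusters, each array left out, and the outlying pair as a block, left out or alone.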

Additional observations from a re-analysis of the deposited data

How the results depend on the processing

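The call of ZBTB1 held with quantile normalization, median centring, an intensity trend, array weights, means of clusters and the outlying pair as a block. Called members numbered 0 with the replicate block, without the dimmer clusters (which drops ZBTB1), in the 4 arrays, at a threshold of 0.01 and without any 1 array, and 2 with array weights or with the outlying pair as a block. With the replicate block, 2 BTB genes were higher and 0 lower at an unadjusted p under 0.05, and the called genes ZBTB1 and PFKP had adjusted p of 0.165 and 0.161. PFKP was also lost at a threshold of 0.01, in the 4 arrays (0.110) and without any 1 array. Lower BTB genes numbered 1 without the dimmer clusters and 0 in the 4 arrays. SLU7 passed without the dimmer clusters (-1.51, adjusted p = 0.0411), with the trend (-1.51, 0.0330), with array weights (-1.61, 0.0269) and with the array block (-1.51, 0.0430).

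The BTB median was 0.15 without the dimmer clusters and in the 4 arrays, and -0.045 in the outlying pair. The SCAN median was 0.55 with array weights, 0.52 in the 4 arrays and 0.47 in the pair. Their difference was -0.28 without the dimmer clusters (44 of 56 members pass that filter), -0.31 with quantile normalization, -0.52 with array weights, -0.37 in the 4 arrays and -0.51 in the pair. Without any 1 array the BTB median ran from -0.015 to 0.24, the SCAN median from 0.33 to 0.51 and their difference from -0.38 to -0.18. Unadjusted counts ran from 1 to 5 (BTB higher), 0 to 2 (BTB lower) and 3 to 6 (SCAN higher), and called members stayed at 0 to 0. The causes were not tested.

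Of 22 named members 17 kept their direction in all 17 alternatives that gave a value. The block terms, the removal of dim clusters, the intensity trend, means of clusters and the threshold of 0.01 cannot change a member's difference. Direction could change only in the other alternatives. ZSCAN10 turned to -0.015 with array weights and -0.011 in the 4 arrays, where ZBTB46 was 0.057 and ZSCAN18 0.044. Without 1 array, differences ran from -0.23 to 0.22 (ZSCAN10), -0.35 to 0.24 (ZBTB46), -0.21 to 0.16 (ZSCAN18), -0.45 to 0.22 (ZBTB8OS) and -0.76 to 0.020 (ZBTB33). Signal limits 13 members, whose mean in at least 1 group lay below 4.86 log2 units.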
